A study of Mus musculus with 72 samples.

Results

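The comparison described here set 8 hand-picked dorsal raphe neurons marked through Crh-cre against 9 marked through Npy2r-cre, all labelled as rostral dorsal raphe. The 17 cells were chosen by their genotype and subdomain labels alone. The study's text places the dissection of the Crh-cre cells in the rostromedial part, so that genotype and the exact site of dissection cannot be told apart. They are 17 of the 70 manually sorted cells, and of the 72 samples of the series, the other two of which are droplet (10X) libraries of Pet1 neurons pooled in 1 table. The study asked how molecular subtypes of Pet1 neurons, defined in the 10X cells, are distributed over dorsal raphe subregions and over genetically marked subgroups.

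Both groups shared 2 alleles, the Flpe recombinase under Pet1 regulatory sequence (Pet1::Flpe+/-) and the dual-recombinase reporter RC::FrePe+/-, and differed in the third, Crh::cre+/- or Npy2r::cre+/-. Crh-cre is a bacterial artificial chromosome transgene, whereas Npy2r-cre is a knock-in at the Npy2r locus. EGFP from the reporter marks a cell that has ever had both Cre and Flpe, so that a marked cell need not have expressed the driver gene when it was picked. The Crh-cre cells came from postnatal day 119 (6 cells, numbered 1 to 5 and 8) and day 83 (cells 6 and 7). The Npy2r-cre cells came from postnatal day 77 (cells 1 to 3) and day 87 (cells 4 to 9), so no age was shared between the groups. The study's methods give a minimum number of mice per condition, but the labels do not say which cell came from which mouse. Each group was therefore treated as 1 sample, no p-value was computed, and SDs and ranges describe the spread between cells only.

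Serotonin neurons of the dorsal raphe synthesise serotonin from tryptophan through the enzyme encoded by Tph2, package it with the vesicular transporter encoded by Slc18a2 and take it back up with the transporter encoded by Slc6a4. The transcription factor Pet1, encoded by Fev, defines this lineage. Many of these neurons also carry genes for a second transmitter, either glutamate, through the vesicular transporter gene Slc17a8, or GABA, through Gad1 and Gad2. Crh encodes corticotropin-releasing hormone, a neuropeptide of the stress response, and Npy2r encodes the Y2 receptor for neuropeptide Y.

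All 17 cells carried the serotonergic genes. Tph2 lay between 7390 and 14700 CPM (read counts scaled to a common total of reads on genes per cell) in the Crh-cre cells, with a median of 9940, and between 5590 and 16300 in the Npy2r-cre cells, with a median of 7040. Fev lay between 322 and 601 CPM in the Crh-cre cells and between 372 and 1060 in the Npy2r-cre cells. The transporter genes Slc6a4 and Slc18a2 were likewise present in every cell, at no less than 1750 and 815 CPM, and En1, a marker of the isthmic and anterior hindbrain origin of these neurons, at no less than 62.7 CPM. On the log2(CPM + 1) scale used throughout, the mean of the Crh-cre cells less that of the Npy2r-cre cells was 0.34 for Tph2, -0.40 for Fev, 0.39 for Slc6a4 and 0.46 for Slc18a2, with cells of the groups overlapping for each gene.

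Depth and gene detection differed between cells. Reads on genes ranged from 1102604 to 6823708 in the Crh-cre cells and from 756872 to 7664103 in the Npy2r-cre cells, and both groups held 4 shallow cells, with 1552472 reads or fewer, and deep cells with 4795247 or more. The labels do not say which cell was sequenced on which instrument. With every cell thinned to the 756872 reads of the shallowest, the Crh-cre cells had 8991 to 9988 genes with a read (median 9566) and the Npy2r-cre cells 6869 to 9315 (median 8702), as the plot of depth and genes detected shows. The difference in detection was present in both depth classes: medians of 9566 against 8494 genes in the shallow cells and of 9535 against 8777 in the deep cells. The unthinned ranges were 9146 to 10509 and 7047 to 9953 genes. Npy2r-cre cell 5 stood apart with the fewest genes and with 0.00153% of its reads on mitochondrial genes, against 0.953% to 2.23% in the other 16 cells.

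**Figure D1:**
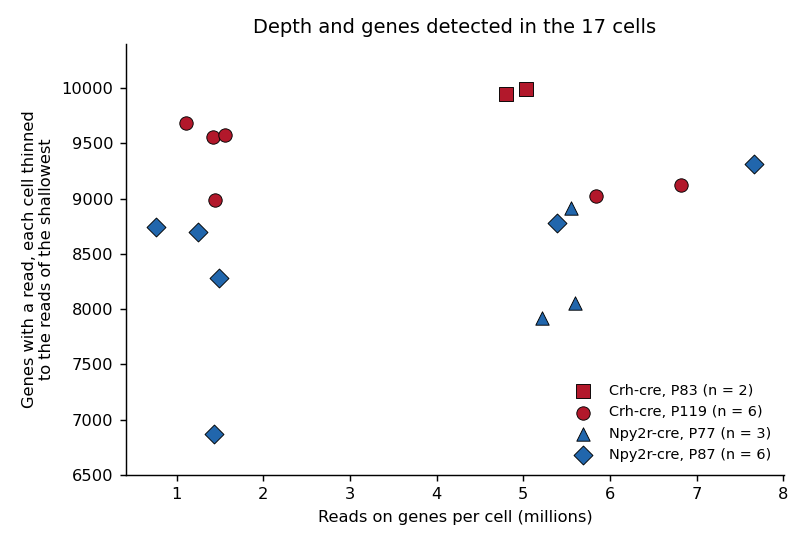
Reads on genes per cell (x axis) against the number of genes with at least 1 read after each cell was thinned to 756872 reads (y axis, which does not start at 0), 1 point per cell, coloured by group and shaped by postnatal day. The Crh-cre cells lie between 8991 and 9988 genes and the Npy2r-cre cells between 6869 and 9315, at both low and high depth.

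Y-linked genes differed between the cells as well. Their summed level was under 1 CPM in the 6 Crh-cre cells of day 119, 281 and 257 CPM in the Crh-cre cells of day 83, and 5.94 to 227 CPM in the 9 Npy2r-cre cells. Xist was listed at 0 in all 70 cells and could not serve as a check. Genotype, age and the presence of Y-linked reads cannot be told apart here, except that the Crh-cre cells of day 83 carried such reads too. Markers of other cells were low: the summed level of 32 glial, microglial, vessel and blood genes was 7.53 to 48.7 CPM in the Crh-cre cells and 14.8 to 111 CPM in the Npy2r-cre cells, and 14 of the 32 had no read in any of the 17 cells. The part of these measures in the differences that follow was not tested.

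The driver genes themselves were sparse. Crh (mm10, chr3:19693401-19695396) was detected, at 1 CPM or more, in 5 of 8 Crh-cre cells, which is 62.5% with an exact 95% binomial interval of 24.5% to 91.5% that covers counting error only. Crh-cre cell 8 held 378 CPM, cells 5 and 4 held 44.4 and 26.4, cells 6 and 2 held 1.46 and 1.41, and cells 1, 3 and 7 had no read. Among the Npy2r-cre cells Crh was read only in cell 3, at 86.7 CPM. The difference of mean log2 levels was 1.96, short of the fold used below, and ranged from 1.12 without Crh-cre cell 8 to 2.68 without Npy2r-cre cell 3. In the remaining manually sorted groups, Crh reached 1 CPM in 3 of 9 Slc6a4-cre cells of the dorsomedial dorsal raphe and in no cell of the other groups.

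Npy2r (chr3:82538383-82548084) did not follow its label. It was detected in 5 of 9 Npy2r-cre cells (55.6%, exact interval 21.2% to 86.3%), with a median of 1.97 CPM and a highest value of 9.4 CPM, and 3 of these cells had no read. It was also detected in 3 of 8 Crh-cre cells, where cell 3 held 57.1 CPM, more than any Npy2r-cre cell of the rostral raphe. The difference of mean log2 levels was 0.20 and turned negative, to -0.42, without that cell. The same driver line in the caudal dorsal raphe gave a median of 4.98 and a highest value of 150 CPM in 10 cells, and Slc6a4-cre cells of the caudal raphe a median of 38.7 CPM in 6 cells.

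Across the transcriptome, genes with at least 5 CPM in at least 3 of the 17 cells were compared, and a gene was called past the fold where the group means of log2(CPM + 1) differed by at least 2, a 4-fold difference on that scale. Of 10893 genes tested, 530 were past the fold in the direction of Crh-cre (4.87%) and 81 in the direction of Npy2r-cre (0.744%), 5.61% in either. The median difference over all genes tested was 0.28, and 63.9% of the genes were above 0. Subtracting that median left 323 genes higher in the Crh-cre cells and 151 higher in the Npy2r-cre cells, and the log2 ratio of mean CPM, whose median over genes was -0.02, gave 408 and 310. The excess of genes higher in the Crh-cre cells lay at low levels. Among 3824 genes with a mean under 20 CPM, 6.93% were past the fold in the direction of Crh-cre and 1.2% in that of Npy2r-cre, and among 2912 from 20 to 50 CPM 7.66% and 0.721%. Among 3089 genes from 50 to 200 CPM the shares were 1.33% and 0.388%, and of 1068 above 200 CPM 1 and 2 genes were past it. The Crh-cre cells also had more genes detected per cell at the median, as given above, and the part of that in the excess was not tested.

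**Figure D2:**
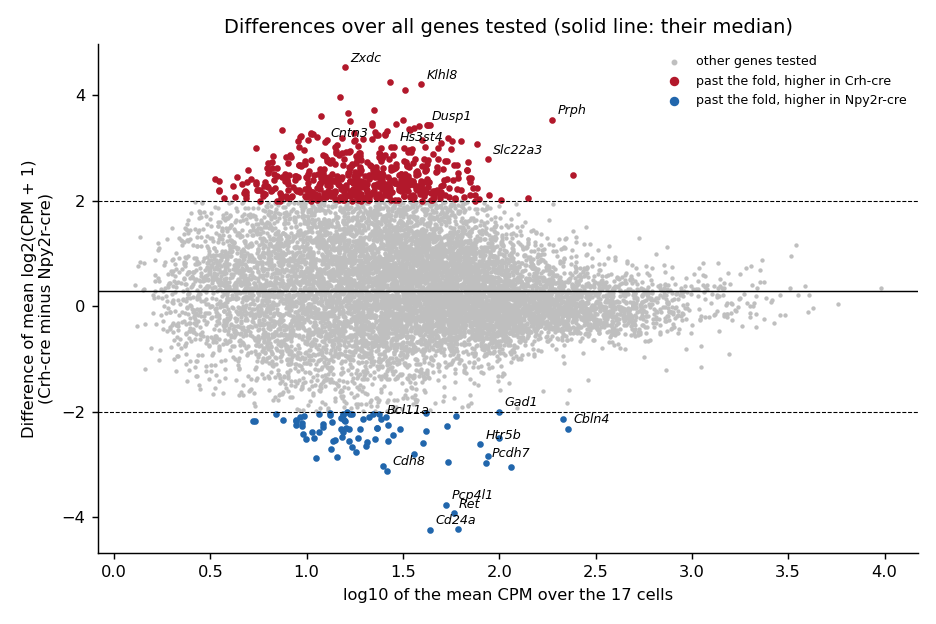
Mean CPM over the 17 cells (x axis, log10) against the difference of mean log2(CPM + 1), Crh-cre minus Npy2r-cre (y axis), 1 point per gene tested. The dashed lines mark the fold of 2 and -2 and the solid line the median difference of 0.28, and the 530 red genes outnumber the 81 blue ones mainly below 50 CPM.

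Almost no gene separated the cells completely. Zxdc alone, which encodes a zinc finger protein, had every Crh-cre cell above every Npy2r-cre cell (1 of 10893 genes, 0.00918%), and no gene had every Npy2r-cre cell higher (0.0%). Its levels were 17.2 to 61.2 CPM in the Crh-cre cells, with a median of 27.5, whereas 8 of the 9 Npy2r-cre cells had no read and cell 3 held 10.1 CPM. The exons of Zxdc (chr6:90369492-90403490) overlap those of Cfap100 on the opposite strand, and the counting was not stated to use strand. Zxdc was not particular to Crh-cre cells, since medians in the other groups reached 31.2 CPM in the Slc6a4-cre cells of the caudal raphe.

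The subtype of each cell was read from the 10X table, in which 2350 Pet1 neurons were regrouped into 14 clusters that carry the numbers of the study's marker genes. Among the 14, cluster 3 is marked by Kit, Hcrtr1 and Phlda1 among others, cluster 4 by Sox14, Vim, Prkcq and Gad2, cluster 5 by Pdyn, Ret and Col25a1, and cluster 6 by Pou3f2, Bcl11a, Gad1, Amigo2 and Ret. Crh-cre cells 2 to 5 were assigned to cluster 3, with scores of 0.585 to 0.672, and each held all 4 of its markers at 5 CPM or more. The remaining Crh-cre cells were split over clusters 5 (cell 1), 4 (cell 6), 9 (cell 7) and 11 (cell 8). Of the Npy2r-cre cells, 2, 4, 7, 8 and 9 were assigned to cluster 6, with scores of 0.361 to 0.689, and the others to clusters 10 (cell 1), 7 (cell 3), 5 (cell 5) and 13 (cell 6). Both groups thus spread over 5 clusters and shared cluster 5, with 1 cell each, under these settings.

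The assignments differed in firmness. The groups shared 3 clusters under 3 of 7 other settings, namely 5, 9 and 12 by canonical correlation, 5, 9 and 11 by the highest Spearman correlation with the cluster means, and 3, 5 and 9 with the 17 cells alone as the query. At a lower resolution (0.7) the clusters were numbered anew by their markers. The groups then shared the cluster numbered 6, which held Crh-cre cell 1 and Npy2r-cre cells 2, 4, 5, 7, 8 and 9. The study describes its clusters 5 and 6 as joined at that resolution. Over the 7 settings of the assignment, Crh-cre cells 6 and 7 and Npy2r-cre cells 2, 4, 7 and 9 kept their cluster number each time. Npy2r-cre cell 3 kept its number in 3 of 7. The 4 Crh-cre cells of cluster 3 carried cluster 1 or 2 as their next choice, with scores up to 0.415. With the 10X cells grouped at the lower resolution, 3 of them fell in the cluster then numbered 2. Npy2r-cre cell 6, assigned to cluster 13, held 1 of its 6 markers at 5 CPM, and its highest rank correlation was with cluster 9. Crh-cre cell 8, assigned to cluster 11, held 2 of 4. For Npy2r-cre cell 8 the score for cluster 6 (0.361) was close to the next (0.278).

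**Figure D3:**
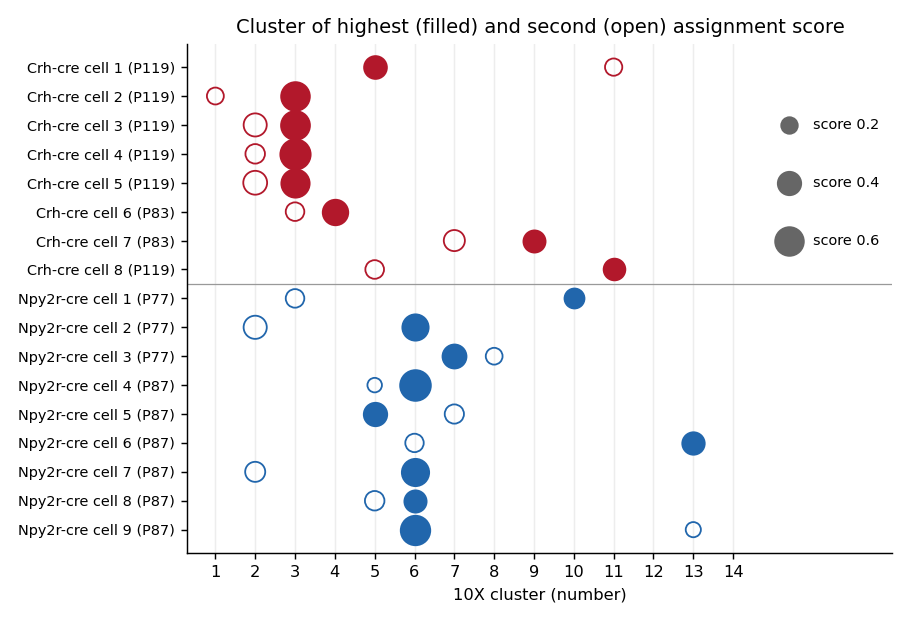
Each row is 1 of the 17 cells with its postnatal day, and each column 1 of the 14 clusters of 10X cells. Filled circles mark the cluster of highest assignment score and open circles the next, with area in proportion to the score, and 4 Crh-cre cells fall in cluster 3 and 5 Npy2r-cre cells in cluster 6.

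The driver genes were also read in the 10X clusters. Both are among the marker genes that numbered the clusters, and the weights used below rest on the assignment of these same sorted cells. The values are therefore a description and not a separate measure. Crh stood at 52.8 CPM in cluster 9 and 20.6 in cluster 5, at 11.8 in clusters 3 and 11, and at 0.208 in cluster 6. Npy2r stood at 67.5 CPM in cluster 7, 58.7 in cluster 10, 43.1 in cluster 13 and 27.0 in cluster 6, against 11.6 in cluster 3 and 1.50 in cluster 4. Weighted by the number of assigned cells, the clusters of the Crh-cre cells had 16.6 CPM of Crh and those of the Npy2r-cre cells 3.88, whereas for Npy2r the weighted levels were 11.0 and 34.7 CPM. The direction for Npy2r in that weighting was opposite to the difference of 0.20 in the sorted cells themselves.

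Among 16 subtype transcription factors tested, 2 were past the fold in the direction of Crh-cre (12.5%, against 4.87% of all genes) and 3 in the direction of Npy2r-cre (18.8%, against 0.744%), and their median difference was -0.71 against 0.28 over all genes. The 3 became 1 without Npy2r-cre cell 6, 7 or 8 and 0 without Npy2r-cre cell 9, and the 2 became 1 without Crh-cre cell 3, 4, 5 or 6. Sox14, an SRY-box factor, was read at 25.2 to 49.0 CPM in Crh-cre cells 3 to 6 and in no other Crh-cre cell, and only at 20.2 CPM in Npy2r-cre cell 5 (difference 2.17). The Crh-cre cells that carried Sox14 are among those assigned to clusters 3 and 4, so this gene split the Crh-cre group as well as the groups.

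In the other direction, Pou3f2, a POU-domain factor, had no read in any Crh-cre cell and stood at 18.0, 10.6, 77.8 and 43.4 CPM in Npy2r-cre cells 2, 4, 7 and 9, with no read in the other 5. Pooled over cells its level was 12.6 CPM in the Npy2r-cre group, at least 118-fold higher than the 0.107 CPM that 3 reads over all Crh-cre cells would give. Without Npy2r-cre cell 9 the pooled level was 6.87 CPM, at least 64.2-fold higher. Bcl11a, a zinc finger transcription factor, was detected in 6 of 9 Npy2r-cre cells (median 43.4, highest 92.5 CPM) and in 3 of 8 Crh-cre cells at 18.7 to 28.2 CPM, a difference of -2.14. Zfp536 was detected in 6 of 9 Npy2r-cre cells up to 128 CPM and in 2 of 8 Crh-cre cells, of which cell 7 held 65.1 CPM (difference -2.30). Nfib and Ldb2, whose highest 10X levels were in cluster 13, had no read in any Crh-cre cell and reached 10.8 and 57.1 CPM in 3 and 2 Npy2r-cre cells, too few to be tested. Pax5, a factor of the isthmic organiser, and Nfix had differences of -1.61 and -1.32, short of the fold. None of 7 general serotonergic and isthmic factors tested, such as Lmx1b and Gata3, was past the fold, against 4.87% and 0.744% of all genes. These are too few genes to read that count against those shares. Their median difference was -0.55, against 0.28 over all genes.

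Of the genes of second transmitters, Gad2, Slc17a8 and Gad1 had SDs between the cells of a group of 3.1 to 4.04 on the log2 scale. Each SD was larger than the difference of that gene between the groups. Gad2 was read at 78.3 to 171 CPM in Crh-cre cells 1 to 6 and not in cells 7 and 8, and in the Npy2r-cre cells it ranged from 0 to 336 CPM with a median of 33.5 (difference 0.85). Slc17a8 showed the complementary pattern in the Crh-cre cells, with 384 and 311 CPM in cells 7 and 8 and at most 4.94 CPM elsewhere, and stood at 227, 401 and 240 CPM in Npy2r-cre cells 1, 3 and 6, which had at most 0.672 CPM of Gad2. The genes were not exclusive in this group, since Npy2r-cre cell 8 held 56.0 CPM of Slc17a8 with 336 CPM of Gad2, the highest of the group, and cell 9 held 49.3 and 12.2 CPM. Gad1, the second glutamate decarboxylase gene, was the member of this list past the fold, in the direction of Npy2r-cre and just beyond the limit. It stood at 439, 695 and 123 CPM in Npy2r-cre cells 2, 8 and 7, and at 439 CPM in Crh-cre cell 2 and at 0 in the other 7 Crh-cre cells. Without Crh-cre cell 2 the difference was -3.10 and without Npy2r-cre cell 8 it was -1.21, and among shallow cells alone it was -0.22 against -3.64 among deep cells. Of 9 genes of GABA and glutamate transmission tested, no other was past the fold in either direction (11.1% in the direction of Npy2r-cre, against 0.744%).

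Of 15 neuropeptide precursor and related genes tested, 1 was past the fold in the direction of Crh-cre (6.67%, near the 4.87% of all genes) and 2 in that of Npy2r-cre (13.3%, against 0.744%), with a median difference of -0.02. With single cells left out, the first count ranged from 1 to 3 (3 without Crh-cre cell 6 or 7) and the second from 0, without Crh-cre cell 5, to 3. Vgf, a secreted granule precursor, lay between 27.1 and 108 CPM in the Crh-cre cells (mean log2 level 5.66 ± 0.68, SD, 8 cells) and between 0 and 29.0 in the Npy2r-cre cells (2.92 ± 2.01, SD, 9 cells), a difference of 2.74. The lowest Crh-cre cell, cell 6, fell below the highest Npy2r-cre cell, cell 3, so that the groups overlapped only there. Cbln4, a secreted synaptic organiser, was higher in the Npy2r-cre cells (lowest 0, median 283, highest 1030 CPM) than in the Crh-cre cells (0, 85.0 and 176 CPM), a difference of -2.32. Against the Npy2r-cre cells of day 77 alone the difference was 0.31. Npb, the precursor of neuropeptide B, was detected in 6 of 9 Npy2r-cre cells up to 43.1 CPM and in 2 of 8 Crh-cre cells up to 3.96 CPM (difference -2.05). Pdyn, the prodynorphin gene, was detected in 6 cells of each group, with medians of 117 and 34.8 CPM, and did not pass the fold (1.35). Its direction turned with the ages compared. Both Crh-cre cells of day 83 had no read, and the difference was -4.11 without the Crh-cre cells of day 119, and 4.14 without the Npy2r-cre cells of day 87. Sst, the somatostatin gene, was read only in Npy2r-cre cells 2 and 7, at 360 and 81.0 CPM, and Penk only in 1 Crh-cre cell, at 39.3 CPM.

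Receptor genes were examined by family. Of 20 genes for other G protein-coupled receptors tested, 2 were past the fold in the direction of Crh-cre (10.0%, against 4.87% of all genes) and none in that of Npy2r-cre (against 0.744%), with a median difference of 0.66. The 2 became 1 without Crh-cre cell 6 or 7 or Npy2r-cre cell 1, 2, 6 or 9. Of 7 serotonin receptor genes, 1 was past it in the direction of Npy2r-cre (14.3%, against 0.744%), with a median of 0.16. Of 14 GABA-A and glycine receptor subunit genes tested, 1 was past the fold in the direction of Crh-cre (7.14%, near the 4.87% of all genes). None was past it in that of Npy2r-cre (against 0.744%), and the median difference was 0.48. One of these genes, Gabra2, had a difference of 0.16, with medians of 30.4 and 19.8 CPM.

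Hrh1, the histamine H1 receptor gene, was detected in 6 of 8 and 3 of 9 cells (difference 2.21), with highest values of 215 and 50.9 CPM. The Hrh1 difference was 0.69 among shallow cells and 3.54 among deep cells. The orexin receptor genes Hcrtr1 and Hcrtr2 did not pass the fold, with differences of 0.56 and 1.14 that turned to -1.01 and -2.17 without the Npy2r-cre cells of day 87, although Hcrtr1 reached 232 to 719 CPM in Crh-cre cells 2 to 6 against a median of 92.2 CPM in the Npy2r-cre cells. Htr5b, a serotonin receptor gene, was read in all 9 Npy2r-cre cells (18.8 to 179 CPM, median 75.5) and was bimodal in the Crh-cre cells, with 254 and 284 CPM in cells 1 and 8, 66.9 in cell 7 and at most 6.44 in the other 5. The difference was -2.62, and fell short of the fold without the Crh-cre cells of day 119 (-1.87). The log2 ratio of mean CPM was -0.08, with means of 76.8 and 81.4 CPM. Htr1b, an inhibitory serotonin receptor gene, was in all 8 Crh-cre cells and 6 of 9 Npy2r-cre cells, with a difference of 1.71 that fell short of the fold.

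Of 8 genes for receptors and binding proteins of corticotropin-releasing hormone and neuropeptide Y, the peptide systems of both drivers, 5 had no read in any of the 17 cells. The other 3 were tested and had a median difference of 0.82. None was past the fold, against 4.87% and 0.744% of all genes, and 3 genes are too few to read that count against those shares.

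Among 50 voltage-gated, HCN and TRP channel genes tested, 3 were past the fold in the direction of Crh-cre and none in that of Npy2r-cre, with a median difference of 0.11. The share of 6.0% was near the 4.87% of all genes, and 1 of the 50 was past the fold in that direction without Crh-cre cell 6 and 5 without Npy2r-cre cell 6 or 8. Kcna4, a potassium channel subunit, was detected in 5 of 8 Crh-cre cells, up to 91.8 CPM, and in 1 of 9 Npy2r-cre cells, at 14.4 CPM (difference 2.32). Kcnd1, a potassium channel gene outside that list, went the other way, with up to 97.6 CPM in 5 of 9 Npy2r-cre cells and at most 1.32 CPM in the Crh-cre cells (difference -2.85), and was not lower in the Crh-cre cells when the Npy2r-cre cells of day 87 were left out (0.19).

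Genes of axon guidance, adhesion and heparan sulfate were the longest list. Of 68 tested, 6 were past the fold in each direction (8.82%, against 4.87% and 0.744% of all genes), with a median of -0.22. After the median difference of all genes was subtracted, 2 of the 6 higher in the Crh-cre cells, Cntn3 and Hs3st4, remained past the fold, and each of the other 4 also fell short when certain single cells were left out. The 6 in the direction of Npy2r-cre became 3 without Crh-cre cell 2, Crh-cre cell 4 or Npy2r-cre cell 6. Higher in the Crh-cre cells were the contactin genes Cntn3 (difference 3.11) and Cntn6 (2.13), the guidance receptor genes Robo2 (2.05) and Unc5d (2.20), the protocadherin gene Pcdh19 (2.18), and Hs3st4 (3.03), which encodes a heparan sulfate sulfotransferase. Hs3st4 was detected in Crh-cre cells 2 to 6, at 18.1 to 245 CPM, and in Npy2r-cre cell 1 at 55.8 CPM. These were the Crh-cre cells assigned to clusters 3 and 4, and the dorsolateral and dorsomedial Slc6a4-cre cells also had Hs3st4, detected in 9 of 10 and 6 of 9 cells. Unc5d and Robo2 were detected in all 8 Crh-cre cells, and in 8 and 7 of the 9 Npy2r-cre cells at lower medians, 30.4 against 103 CPM and 22.2 against 62.4 CPM.

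Higher in the Npy2r-cre cells were Cdh8 (-3.12), Pcdh7 (-2.97), Gpc6 (-2.48), Gpc5 (-2.10), Efnb3 (-2.07) and Sulf2 (-2.07), which encode a cadherin, a protocadherin, glypicans, an ephrin and a heparan sulfate sulfatase. Cdh8 was detected in 7 of 9 Npy2r-cre cells at 17.2 to 144 CPM, and among Crh-cre cells only in cells 1 and 8, at 34.1 and 15.6 CPM. Pcdh7 was detected in 8 of 9 Npy2r-cre cells (median 113, highest 247 CPM), and was as high in Crh-cre cells 1 and 8, at 223 and 141 CPM, but at 22.6 CPM or less in the other 6. The differences of Efnb3, Sulf2 and Gpc5 were -3.86, -3.59 and -4.26 among shallow cells and -0.56, -0.64 and -0.47 among deep cells. Some exons of Cdh8, Pcdh7, Sulf2, Gpc5, Hs3st4 and Pcdh19 overlap annotated exons on the opposite strand.

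**Figure D4:**
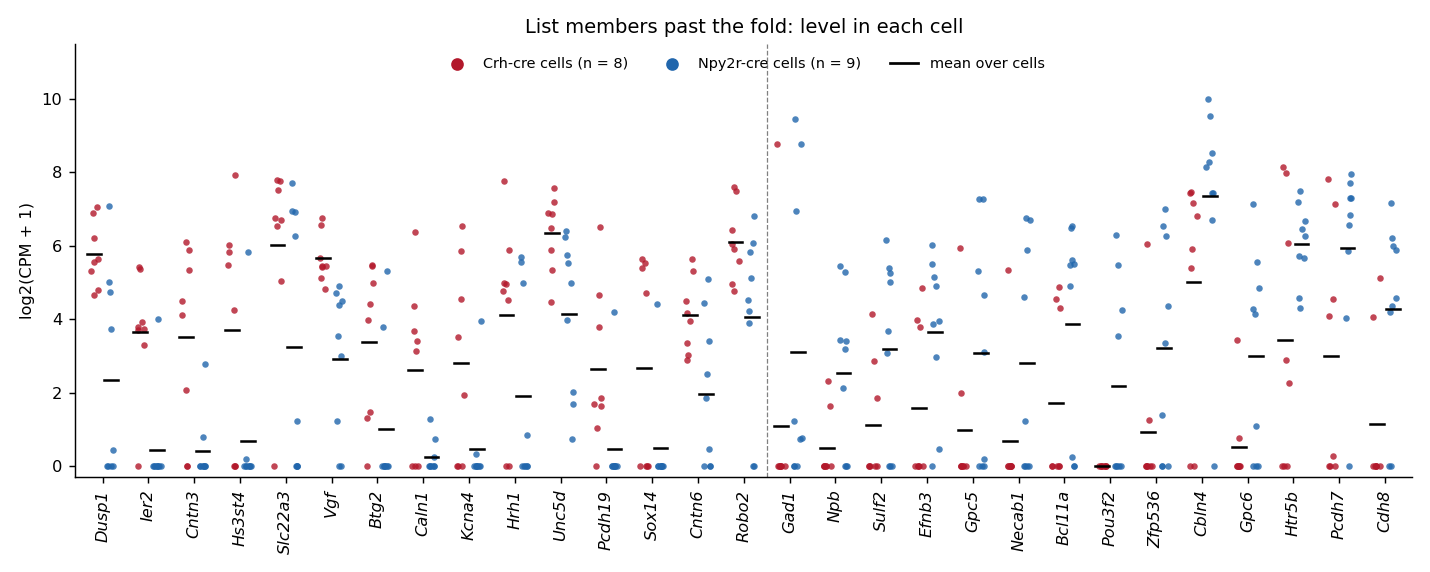
Level of each of 29 genes of the lists that were past the fold (x axis, sex-linked genes left out) as log2(CPM + 1) (y axis), 1 point per cell, red for the 8 Crh-cre and blue for the 9 Npy2r-cre cells, with bars at the group means. The 15 genes left of the dashed line are higher in the Crh-cre cells and the 14 to its right higher in the Npy2r-cre cells, and for each of the 29 the cells of the groups overlap.

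Immediate early genes, which neurons switch on shortly after activity or handling, had the highest median difference of any list with more than 3 genes tested, 1.79 over 13 genes. Of these, 3 were past the fold, all higher in the Crh-cre cells (23.1%, against 4.87% of all genes), and 7 were without Npy2r-cre cell 9. Dusp1 lay between 24.5 and 131 CPM in the Crh-cre cells (mean log2 level 5.77 ± 0.89, SD), and was at 0.36 CPM or less in 5 Npy2r-cre cells and at 12.3 to 135 CPM in the other 4 (2.34 ± 2.80, SD), a difference of 3.43. Ier2 was detected in 7 of 8 and 1 of 9 cells (3.20), and Btg2 in 7 of 8 and 2 of 9 (2.38). The summed level of the 22 listed genes overlapped between the groups, however, from 227 to 766 CPM with a median of 336 in the Crh-cre cells, and from 61.2 to 540 with a median of 241 in the Npy2r-cre cells. None of 13 heat shock genes tested was past the fold, against 4.87% and 0.744% of all genes. These are too few genes to read that count against those shares.

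Of the remaining lists, Slc22a3, an organic cation transporter gene, was the single member of 15 serotonin synthesis and transport genes past the fold (6.67%, near the 4.87% of all genes). It was read at 32.1 to 220 CPM in 7 of 8 Crh-cre cells and at up to 209 CPM in 5 of 9 Npy2r-cre cells, a difference of 2.79. Among calcium-binding proteins, Caln1 was higher in the Crh-cre cells (5 of 8 against 1 of 9 cells, difference 2.37) and Necab1 in the Npy2r-cre cells (1 of 8 against 5 of 9, -2.13), of 15 tested (6.67% in each direction, against 4.87% and 0.744%). Caln1 fell short of the fold without Crh-cre cell 6, and Necab1 without Npy2r-cre cell 4, 7, 8 or 9. None of the 2 nicotinic receptor subunit genes and the 3 genes of the glial, microglial, vessel and blood list tested passed the fold. Their median differences were 0.08 and -1.32, and these are too few genes to read the counts against the shares of all genes.

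The 15 leading genes in each direction were next described. Those higher in the Crh-cre cells and given here were all outside the lists: Zxdc (4.53), Klhl8 (4.22), Osgep (4.09), Zfp775 (3.96), Xrcc1 (3.73), Smg8 (3.67), Haus3 (3.60), Kctd5 (3.52), Elmod3 (3.47), Stam2 (3.46), Spag5 (3.44) and Zfp410 (3.44), with Prph (3.54), a neuronal intermediate filament gene, and Rerg (3.53). For example, Osgep, a gene of transfer RNA modification, was read in all 8 Crh-cre cells at 5.16 to 129 CPM and in 3 of 9 Npy2r-cre cells up to 30.8 CPM, and Xrcc1, a gene of DNA single-strand break repair, in 8 of 8 and 2 of 9. Prph was highest in Crh-cre cells 2 to 5, at 299 to 867 CPM, stood at 216 and 77.8 CPM in cells 8 and 6, and was also high in the dorsolateral and dorsomedial Slc6a4-cre cells, at medians of 337 and 290 CPM. Without the Crh-cre cells of day 119 the differences of Prph and Xrcc1 were 0.33 and 0.62, which ends both calls.

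Those higher in the Npy2r-cre cells were Cd24a (-4.24), Ret (-3.92), Pcp4l1 (-3.76), Cdh8, Rprm (-3.05), Capn15 (-3.03), Pcdh7, Abraxas2 (-2.95), Fgf18 (-2.87), Kcnd1, Rgs10 (-2.83), Ccl25 (-2.81), Plpp4 (-2.76), Hist1h1e (-2.70) and Scd3 (-2.66). Cd24a, which encodes a cell-surface glycoprotein (chr10:43578284-43584265), was detected in 7 of 9 Npy2r-cre cells at 40.4 to 305 CPM and in 1 of 8 Crh-cre cells, cell 7, at 37.5 CPM. Ret, the receptor tyrosine kinase gene for ligands of the GDNF family (chr6:118151745-118197718), was detected in 8 of 9 Npy2r-cre cells at 18.4 to 242 CPM, and in Crh-cre cells 1, 8 and 3 at 87.7, 23.8 and 3.63 CPM. Pcp4l1 was detected in 8 of 9 and 3 of 8 cells, with highest values of 209 and 24.6 CPM. Crh-cre cell 1, which was assigned to cluster 5 as was Npy2r-cre cell 5, held the highest Ret, Cdh8 and Pcdh7 values of its group. Plpp4 had no read in any Crh-cre cell, and its pooled level in the Npy2r-cre cells, 32.8 CPM, was at least 306-fold higher than the floor of 3 reads. Of the 9 Npy2r-cre cells 5 were at 0.802 CPM or less, and without cell 9 the pooled level was 17.5 CPM, at least 163-fold higher.

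The differences were next set beside those between the 10X clusters to which the cells had been assigned, weighted by the number of cells. The 10X cells came from other libraries, but the assignment had used 1907 variable genes of the same sorted cells, among them all but 2 of the 35 list members past the fold with the sex-linked genes left out, so the match of these genes is in part built in and is given as a description. Of the 21 list members higher in the Crh-cre cells, 20 were higher in the weighted clusters of the Crh-cre cells, Kcna4 being the exception, and 11 by at least 0.5 on the log2 scale. All 14 list members higher in the Npy2r-cre cells, sex-linked genes left out, were higher in the clusters of the Npy2r-cre cells, each by at least 0.5. The sex-linked Ddx3y and Eif2s3y, also past the fold in the direction of Npy2r-cre, had 10X differences of 0.10 and 0.08 in the other direction. Among all genes tested and measured in 10X, 40.8% were higher in the Crh-cre weighting, 2.43% by at least 0.5, and 4.05% were lower by at least 0.5.

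The larger sets matched less evenly. Of the 516 genes past the fold in the direction of Crh-cre that were measured in 10X, 54.8% were higher in the Crh-cre weighting and 10.5% by at least 0.5, with a median of 0.03. Of the 78 in the direction of Npy2r-cre, 20.5% were higher in the Crh-cre weighting and 50.0% were lower by at least 0.5, with a median of -0.51. Among the leading genes, Prph, Rerg and Spag5 were higher in the Crh-cre weighting by 1.65, 1.69 and 1.84, and the other 11 leading Crh-cre genes given above lay within 0.2 of 0. Zxdc, for example, had a 10X difference of -0.01 and Klhl8 of -0.12. Of 14 leading Npy2r-cre genes measured, 10 were lower by at least 0.5, among them Ret (-1.94), Cd24a (-1.81) and Plpp4 (-3.35), whereas Capn15 (0.05), Ccl25 (0.00), Kcnd1 (0.02) and Hist1h1e (-0.11) were not.

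**Figure D5:**
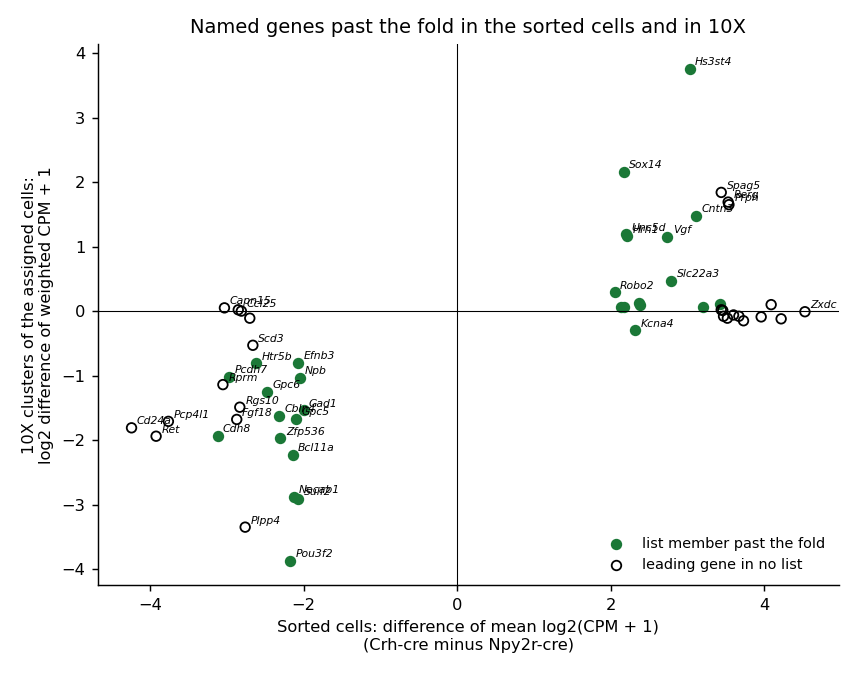
Difference of mean log2(CPM + 1) in the sorted cells, Crh-cre minus Npy2r-cre (x axis), against the log2 difference of the weighted levels of the 10X clusters to which the cells were assigned (y axis), for the named genes past the fold, filled for list members and open for leading genes in no list. Filled points fall in the upper right and lower left apart from Kcna4, while most open points on the right lie at 10X differences within 0.2 of 0 (those are left unnamed apart from Zxdc).

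Depth and age were examined for the genes past the fold. In the shallow and the deep cells taken separately, 525 of the 530 genes higher in the Crh-cre cells had the same sign in both classes, 453 reached 1 in both and 196 passed the fold in both, and of the 81 higher in the Npy2r-cre cells 81 had the same sign, 70 reached 1 and 23 passed the fold in both. Of all 10893 genes tested, 6126 had the same sign in both classes, 1298 reached 1 and 219 passed the fold in both. These classes are subsets of the cells in which the genes were chosen. Of the named genes, Ddx3y and Eif2s3y, which are Y-linked, had differences of -4.23 and -2.56, and were higher in the Crh-cre cells when only those of day 83 were used (0.92 and 2.06). Zxdc, Ret, Cd24a, Pcp4l1, Vgf, Dusp1, Sox14 and Hs3st4 kept their direction in all 4 pairings of a Crh-cre age with an Npy2r-cre age. Of the 64 named genes past the fold, 24 fell short of it without the Npy2r-cre cells of day 87, 14 without the Crh-cre cells of day 119, 9 without those of day 83 and 7 without the Npy2r-cre cells of day 77. The 24 included Ret (-1.34), Vgf (1.27), Hs3st4 (1.75), Cdh8 (-0.81), Pcdh7 (-1.48), Gpc6 (-1.33), Rprm (-0.64), Rgs10 (-1.22), Pou3f2 (-1.42) and Plpp4 (-1.77). The 14 included Prph, Xrcc1, Htr5b, Cntn3 (1.85), Abraxas2 (-0.91), Sulf2 (-0.83), Npb (-1.39) and Zfp536 (-0.19), the 9 Kcna4 (1.70), Caln1 (1.57) and Hrh1 (1.31), and the 7 Sox14 (1.92), Btg2 (1.87) and Hist1h1e (-1.72). By the log2 ratio of mean CPM 21 of the 64 fell short, among them Slc22a3 (1.02), Dusp1 (1.48), Pcdh7 (-1.21), Rprm (-0.63), Kctd5 (1.27) and Zfp410 (0.49). Of 57 other named genes, 20 changed sign without the Crh-cre cells of day 119, among them Crh (-0.07), Npy2r (-1.34), Pdyn, Gad2 (-0.59) and Slc17a8 (0.31). Bcl11a, Zfp536 and Cbln4 kept their direction in 3 of the 4 pairings, and Gpc5, Necab1 and Kcnd1 in 2.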

How the data were processed

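Single EGFP-marked neurons were picked by hand, and libraries were made with SMART-Seq v4 and Nextera XT. Per the study's methods the authors mapped reads to mm10 and counted them per gene with STAR 2.5.4, without filtering cells, and the deposited values are whole read counts without molecular identifiers. The 10X table holds the deposited UMI counts of 2350 cells from Cell Ranger 3.0.2, filtered by the authors. The mode of counting strand is not given in the sources used here.

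Counts were divided by each cell's total over 24256 genes (CPM), and log2(CPM + 1) was averaged over cells. Genes with at least 5 CPM in at least 3 of the 17 cells were tested against a difference of 2. The labels name no animals, so each group counted as 1 sample and nothing was tested for significance. The 10X cells were clustered with Seurat 5.3.0 (2000 variable genes, components 1 to 50 without 6 and 7, which followed the 2 barcode sets, which share 0 barcodes, 20 neighbours, resolution 0.9) and labels transferred to all 70 sorted cells (301 anchors, 30 dimensions). Cluster numbers came from fixed marker genes.

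Named genes are the driver genes, members of 19 lists that are past the fold or that the study names for a cluster, and the 15 largest differences in each direction, without predicted, clone-named and sex-linked genes. The members and lists were chosen with earlier results of these data known. Some genes are not reported here, although counts over lists include them. Gene positions came from GENCODE M21 (GRCm38). Python 3.11.15, R 4.3.3, edgeR 4.0.16 and DESeq2 1.42.0 were used, the last 2 for scaling factors alone, and the measures were tested on simulated data.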

Additional observations from a re-analysis of the deposited data

Results flagged for a closer look

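A cell that stood far from the others of its group by Dixon's criterion was found in 30 of 130 groups of values examined. The criterion assumes normal values, and a gene read in a single cell of a group passes it by construction. The count therefore cannot be compared with chance. The levels are of genes that were sparse in single cells, and all values below are in CPM.

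Among the Crh-cre cells, cell 7 was highest for Zfp536 (65.1, next 1.39) and Cd24a (37.5, next 0), and cell 2 for Gad1 (439, next 0) and Gpc6 (9.88, next 0.696). Cell 1 was highest for Gpc5 (60.5, next 2.98), Necab1 (39.7, next 0) and Fgf18 (2.78, next 0), and cell 5 for Kcnd1 (1.32, next 0.209). Cells that stood below the rest were cell 8 for Slc22a3 (0, next 32.1) and Elmod3 (0, next 9.18), cell 5 for Ier2 (0, next 8.74), and cell 7 for Osgep (5.16, next 31.2) and Stam2 (7.15, next 33.9).

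Among the Npy2r-cre cells, cell 3 was highest for Crh (86.7, next 0), Pcdh19 (17.3, next 0) and Zxdc (10.1, next 0). Cell 1 was highest for Hs3st4 (55.8, next 0.13), cell 5 for Sox14 (20.2, next 0), cell 7 for Kcna4 (14.4, next 0.261), and cell 8 for Cntn3 (5.87, next 0.715) and Ier2 (15.0, next 0). Cell 9 was highest for Zfp775 (48.6, next 0) and Kctd5 (87.2, next 3.96), and cell 4 for Haus3 (1.32, next 0) and Elmod3 (76.6, next 5.35). Cells below the rest were cell 1 for Cbln4 (0, next 103), Ret (0, next 18.4) and Rprm (0, next 16.3), and cell 3 for Pcdh7 (0, next 15.3).

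The mitochondrial share of reads in Npy2r-cre cell 5 was 0.00153%, and the next lowest Npy2r-cre cell had 1.12%. Without that cell 538 genes were past the fold in the direction of Crh-cre and 109 in that of Npy2r-cre.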

How the results depend on the processing

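The direction of excess, more genes past the fold toward Crh-cre, held in all settings but a pseudocount of 10 CPM, which gave 4 and 4. Against 530 and 81, a pseudocount of 0.1 gave 1800 and 284, medians 1327 and 260, and the ratio of mean CPM 408 and 310, which kept 176 of the 530 and 60 of the 81. A filter of 20 CPM in 5 cells gave 390 and 45. Without the Crh-cre cells of day 83 the counts were 590 and 145, without those of day 119 1306 and 240, without the Npy2r-cre cells of day 77 654 and 144, and without those of day 87 1430 and 304. Chosen after seeing the data, shallow cells alone gave 1068 and 260, deep cells alone 879 and 203, centring 323 and 151, and a mean of at least 50 CPM 42 and 14. Leaving out each cell gave 535 to 677 and 72 to 119, and 1 to 7 and 0 to 3 genes without overlap. TMM factors gave 2 without overlap. Zxdc was among those each time. Cluster 3 held 2 Crh-cre cells by canonical correlation, 0 with components 1 to 50, where these 4 cells fell together in a cluster that took no number, and 1 at resolution 0.7. With components 1 to 50 and at resolution 0.7 the clusters were numbered anew.

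Of 64 named genes past the fold, 5 were past it in every one of 32 settings, among them Klhl8, Osgep, Cd24a and Pcp4l1, and 43 whenever 1 cell was left out. Among genes past the fold, differences changed sign for Ddx3y (0.92) and Eif2s3y (2.06) without the day 119 Crh-cre cells, and for Cbln4 (0.31), Gpc5 (0.99), Necab1 (0.67) and Kcnd1 (0.19) without the day 87 Npy2r-cre cells. The cause was not tested. No paired analysis was possible because cell numbers link no cell of one group to one of the other. Counts of cells limit detection shares, whose intervals are wide.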
